A study of Homo sapiens with 12 samples.

Results

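The 8 genes described here code for enzymes that split ester or lactone bonds: the carboxylesterases CES1, CES2, CES3 and CES4A, the arylacetamide deacetylase AADAC, and the paraoxonases PON1, PON2 and PON3. They were chosen by gene symbol from 27249 Ensembl genes listed in each deposited table, and all 8 were found. The rule sets no limit on a measured value, but the group was put together with the FPKM of these 12 samples already known, so the tests below describe these genes and are no independent support for a pattern among them.

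Huh7 and HepG2 are human liver cancer cell lines that the sources describe as hepatocellular carcinoma (HCC) lines, both labelled WT in genotype. In each line, sorafenib-resistant cells were compared with untreated parental cells of the same line, with 3 samples in each of the 4 groups. The resistant cells had survived repeated sorafenib, a multikinase inhibitor used against HCC, over 8 months, from a first dose of 10 μmol that was then raised step by step. A single resistant line is described for each parental line, and nothing in the sources says that the 3 samples of a group are separate cultures, so p-values measure only the spread between these samples, which may be technical.

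Carboxylesterases are serine hydrolases of the endoplasmic reticulum. CES1, the main hydrolase of human liver, prefers esters with a small alcohol group and also hydrolyses lipid esters, while CES2, known best from intestine, prefers a small acyl group and releases the active drug from irinotecan. AADAC, anchored in the same membrane, removes acetyl groups from arylacetamide drugs. Paraoxonases are calcium-dependent lactonases: PON1 and PON3 are secreted by liver and carried on high-density lipoprotein (HDL), and PON2 stays inside cells.

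The values are called FPKM here (fragments scaled by exon length and sequencing depth), since 96.3% to 96.5% of the values of a sample that stand for up to 2000 reads came out within 0.05 of a whole number of reads when both scalings were undone. Reads per sample, recovered from the steps in the values, numbered 12290128 to 19285970, with the fewest in parental HepG2 cells. All 8 hepatocyte markers examined, among them ALB, APOB and HNF4A, had at least 1 FPKM in every sample, with a summed level of 3631 to 9650 FPKM. DCN (stroma), CDH5 (endothelium), CD68 (macrophages) and KRT7 (bile duct) had group means of at most 0.0503 FPKM, against summed levels of 1.81 to 5.34 FPKM over 6 stromal, 1.17 to 3.66 over 3 endothelial and 0.975 to 1.76 over 3 blood cell markers. The highest of each of these 3 lists were PDGFRB, at group means of 2.07 to 3.58 FPKM, PECAM1, at 1.34 to 3.13, and PTPRC, at 0.819 to 1.09. The other bile duct markers were expressed, KRT19 at group means of 7.18 to 70.4, EPCAM at 6.14 to 45.4 and SOX9 at 52.3 to 132.7 FPKM, and the sum over the 4 bile duct markers was 83.3 to 209.9 FPKM. Summed over the 8 hepatocyte markers, the level was 5006 to 5201 FPKM in resistant and 7718 to 9650 in parental Huh7 samples. In HepG2 this sum was 3631 to 3993 FPKM in resistant and 4795 to 5984 in parental samples. Resistant against parental, mean ALB was 695 against 952 FPKM in Huh7 and 825 against 1615 in HepG2. Mean AFP was lower in the resistant cells of both lines, at 2291 against 5332 FPKM in Huh7 and 366 against 1394 in HepG2. The other hepatocyte markers went both ways. Resistant against parental, mean SERPINA1 was 786 against 669 FPKM in Huh7 and 1214 against 1100 in HepG2. Mean HNF4A was 80.2 against 46.9 and 77.5 against 76.9 FPKM, and mean FGB 268 against 244 and 11.2 against 47.3 FPKM, in the same order of lines.

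On GRCh38, 3 of the carboxylesterase genes lie side by side on the plus strand of chromosome 16, CES2 at chr16:66934444-66945096, CES3 at chr16:66961237-66975148 and CES4A at chr16:66988589-67009758, and CES1 lies apart from them on the minus strand at chr16:55802851-55833337. AADAC is at chr3:151814037-151828488 on the plus strand. The paraoxonase genes form a cluster on the minus strand of chromosome 7, with PON1 at chr7:95297676-95324707, PON3 at chr7:95359944-95396368 and PON2 at chr7:95404863-95435329. No other listed Ensembl gene overlaps any of the 8.

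The 250 bases before RefSeq's transcription start of AADAC and of the paraoxonases are shown because these genes include the ones that rose in resistant Huh7 cells, and because the paraoxonases are neighbours that did not change alike. They are RefSeq sequences of GRCh38.p14, in which 6 of the 8 genes were found. Capitals mark matches, on either strand, to the core TATAAA of a TATA box, the CCAAT box, the GC box with the letters GGGCGG, the nuclear receptor half-site with the letters AGGTCA, and the antioxidant response core with the letters TGACNNNGC.
AADAC: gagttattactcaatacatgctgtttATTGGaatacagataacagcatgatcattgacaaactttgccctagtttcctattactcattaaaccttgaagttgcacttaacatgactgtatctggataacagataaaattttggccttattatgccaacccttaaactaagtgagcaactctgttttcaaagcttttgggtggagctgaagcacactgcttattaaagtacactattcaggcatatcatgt
PON1: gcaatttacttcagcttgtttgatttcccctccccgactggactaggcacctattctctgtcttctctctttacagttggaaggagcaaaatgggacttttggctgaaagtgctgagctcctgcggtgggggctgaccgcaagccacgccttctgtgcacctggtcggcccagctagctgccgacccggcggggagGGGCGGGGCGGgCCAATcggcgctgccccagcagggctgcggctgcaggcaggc
PON3: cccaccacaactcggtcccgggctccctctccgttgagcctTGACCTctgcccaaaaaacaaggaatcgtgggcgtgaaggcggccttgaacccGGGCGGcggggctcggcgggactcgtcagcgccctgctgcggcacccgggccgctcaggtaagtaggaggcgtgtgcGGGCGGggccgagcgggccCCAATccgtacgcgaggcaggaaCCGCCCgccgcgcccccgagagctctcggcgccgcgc
PON2: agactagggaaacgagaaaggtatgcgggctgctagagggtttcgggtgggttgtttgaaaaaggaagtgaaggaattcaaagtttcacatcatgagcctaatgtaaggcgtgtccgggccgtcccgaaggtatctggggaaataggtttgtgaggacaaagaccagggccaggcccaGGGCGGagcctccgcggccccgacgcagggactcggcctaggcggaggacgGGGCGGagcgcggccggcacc
They are chr3:151813866-151814115 (plus strand), chr7:95324533-95324782, chr7:95396376-95396625 and chr7:95435029-95435278 (minus strand), in this order. The window of AADAC has a GC content of 35.6% and no CpG. Those of PON1, PON3 and PON2 have 62.4%, 72.8% and 60.4% GC and 13, 33 and 19 CpGs, against medians of 58% and 11 over 35116 promoter windows of the same length. AADAC holds CCAAT on the reverse strand 224 bases before the start, PON1 holds CCAAT at 42 bases and 2 overlapping copies of GGGCGG at 54 and 49 bases, and PON2 holds GGGCGG at 72 and 21 bases. PON3 holds CCAAT at 60 bases, GGGCGG at 156, 79 and, reversed, 37 bases, and AGGTCA reversed at 209 bases. Of all windows, 32.0% hold the CCAAT box on either strand, 42.6% the GC box, 12.1% the nuclear receptor half-site, 10.7% the TATA core and 10.9% the antioxidant response core, and the last 2 are in none of the 4 windows shown. A match is a run of letters and not a tested site.

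CES1 was the most abundant of the 8 genes in parental HepG2 cells and was lower by over an order of magnitude in resistant HepG2 cells, whereas in Huh7 the states differed by less than the spread of the samples. In HepG2 it measured 44.8, 50.7 and 41.4 FPKM in the parental samples and 1.07, 1.51 and 1.33 FPKM in the resistant ones. The lowest parental sample stood far above the highest resistant one, and the resistant values rest on 53 to 81 reads per sample. Mean CES1 was 45.6 ± 4.72 FPKM (SD, n = 3) in parental and 1.30 ± 0.22 FPKM (SD, n = 3) in resistant HepG2 cells, 35.1-fold higher in parental cells. On the log2(FPKM + 1) scale, which understates the change of low genes, CES1 fell by 4.34 (SE 0.15, limma's adjusted p = 6.34e-06). Samples are bulk RNA, so fewer cells with CES1 RNA and less CES1 RNA per cell cannot be told apart.

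In Huh7, CES1 measured 5.26, 4.40 and 4.46 FPKM in resistant and 5.48, 4.65 and 4.15 FPKM in parental samples. These ranges overlap, and the fitted difference was -0.01 on the log2 scale with a 95% interval of -0.30 to 0.28 (limma's adjusted p = 0.942). With the trend of each library against gene GC content removed, it was -0.43 (adjusted p = 0.00167), under the limit of 1 on the log2 scale that a call needs here. CES1P1, a pseudogene copy of CES1 at chr16:55760566-55793960, was examined after the values were seen because reads of near-identical genes can be split between them. It had 84 reads in the 3 parental HepG2 samples and 3 in the resistant ones, a depth-scaled ratio of 35.7 (95% exact interval 11.8 to 176). The ratio for CES1 itself was 34.7 (95% exact interval 30.1 to 40.1). Such intervals cover counting error only and leave out the spread between samples. PCR copies of a molecule cannot be recognised in these reads, so even the counting error may be understated. In no Huh7 sample did CES1P1 exceed 3 reads.

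CES2 was higher in HepG2 than in Huh7, and slightly higher in resistant than in parental samples of both lines. It measured 5.22, 3.93 and 4.30 FPKM in resistant Huh7 and 3.25, 2.37 and 2.37 FPKM in parental Huh7 samples. In HepG2 it measured 13.0, 18.7 and 16.3 FPKM in resistant and 9.54, 12.5 and 9.50 FPKM in parental samples. In neither line did the resistant and parental samples overlap. The rise in Huh7 was 1.68-fold (0.58 on the log2 scale, SE 0.14, limma's adjusted p = 0.00582), under the same limit. With the GC trend removed, it was 0.07 (adjusted p = 0.506). In HepG2 the means differed 1.52-fold, by 0.56 on the log2 scale (SE 0.18), which did not pass the threshold (limma's adjusted p = 0.0582) but had an adjusted p of 0.00887 with the GC trend removed.

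CES3, which lies next to CES2, was measured almost entirely in HepG2. It stood at 3.45, 5.79 and 5.33 FPKM in resistant and 3.19, 4.42 and 2.62 FPKM in parental HepG2 samples. These overlap, and the difference of 0.41 on the log2 scale (SE 0.22) did not pass the test (limma's adjusted p = 0.215). Huh7 had 3 reads of CES3 in each parental sample and 3, 6 and 6 reads in the resistant samples, at most 0.0640 FPKM, so it was not tested there. Scaled by depth, CES3 reads were 93.3 times as frequent in parental HepG2 as in parental Huh7 cells (678 against 9 reads, 95% exact interval 48.8 to 205).

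CES4A, the last gene of this row and the least studied of the carboxylesterases here, was at the floor of detection everywhere. Its 12 values ran from 0 to 0.0402 FPKM, or 0 to 3 reads per sample. It passed the filter on low values in no comparison, and without that filter limma's adjusted p ran from 0.590 to 0.936. A difference between the groups was not detectable at this depth.

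AADAC rose in resistant Huh7 cells and was low in HepG2. It measured 14.5, 20.0 and 16.8 FPKM in resistant Huh7 and 4.48, 4.13 and 5.01 FPKM in parental Huh7 samples, on 458 to 643 and 116 to 135 reads per sample. All resistant samples stood above all parental ones. The mean was 17.1 ± 2.77 FPKM (SD, n = 3) against 4.54 ± 0.44 FPKM (SD, n = 3), 3.77-fold higher, and the change was 1.70 on the log2 scale (SE 0.14, limma's adjusted p = 3.27e-05). In HepG2, AADAC measured 0.496, 0.328 and 0.209 FPKM in resistant and 0.502, 0.585 and 0.419 FPKM in parental samples. These overlap and rest on 6 to 14 reads per sample, and the gene did not pass the filter on low values in that line.

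PON3 also rose in resistant Huh7 cells, from a low parental level. Its resistant samples measured 5.81, 6.61 and 6.08 FPKM and its parental samples 1.89, 2.04 and 2.19 FPKM. The groups do not overlap, the means of 6.17 ± 0.41 and 2.04 ± 0.15 FPKM (SD, n = 3 each) differ 3.02-fold, and the change was 1.24 on the log2 scale (SE 0.11, limma's adjusted p = 4.31e-05). In HepG2 it was higher throughout, at 9.94, 10.6 and 9.44 FPKM in resistant and 11.9, 12.8 and 11.3 FPKM in parental samples. The parental samples all stood above the resistant ones there, by 1.20-fold on average, a difference of -0.24 on the log2 scale (SE 0.13) that did not pass the test (limma's adjusted p = 0.219).

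PON1 was expressed mainly in Huh7, at 10.6, 11.6 and 10.5 FPKM in resistant and 6.16, 7.27 and 7.50 FPKM in parental samples. The groups do not overlap, and the 1.56-fold rise (0.58 on the log2 scale, SE 0.11, limma's adjusted p = 0.00162) stayed under the fold limit. In HepG2, PON1 measured 1.23, 0.657 and 0.903 FPKM in resistant and 0.350, 0.517 and 0.786 FPKM in parental samples. The ranges overlap, on 13 to 59 reads per sample, and the gene was not tested within HepG2.

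PON2 had the highest level of the 8 genes in every group but parental HepG2, and its group means lay closer together than those of any other gene above the floor. In Huh7 it measured 28.2, 33.8 and 27.8 FPKM in resistant and 35.9, 34.5 and 44.2 FPKM in parental samples. The parental samples were all higher, by 1.28-fold on average (-0.34 on the log2 scale, SE 0.13, limma's adjusted p = 0.0454), and with the GC trend removed the difference was -0.13 (adjusted p = 0.295). In HepG2 it measured 28.8, 23.8 and 24.3 FPKM in resistant and 17.0, 17.7 and 26.3 FPKM in parental samples, which overlap (0.34 on the log2 scale, SE 0.19, limma's adjusted p = 0.225). Inside PON2, on the same strand, lie 2 listed NONCODE transcripts, chosen after their values were seen. An interval of 311 bases, of which 215 are PON2 exon, had 9.32 to 17.5 FPKM in parental and 3.73 to 8.00 in resistant Huh7 samples, and an interval of 221 bases outside the exons had 41.4 to 52.4 and 10.7 to 18.8 FPKM. In HepG2 the states overlapped for both, at 3.43 to 8.79 FPKM in parental and 4.86 to 7.03 in resistant samples for the first and 13.99 to 31.4 and 19.3 to 35.8 FPKM for the other. On the opposite strand, an interval that covers 2667 exon bases had 1.31 to 2.29 FPKM in parental and 0.498 to 0.701 in resistant Huh7 samples. In HepG2 its states overlapped, at 0.5315 to 0.8835 FPKM in parental and 0.721 to 1.10 in resistant samples. The library kit named in the labels does not mark strand. Reads of PON2 could have been split with the intervals that cover exon bases, so its level is uncertain to that extent. The same limit holds for CES2, CES3, CES4A and AADAC. Listed NONCODE intervals cover all 5343 exon bases of CES2, all 1668 of AADAC and some of CES3 and CES4A. These intervals had at most 0.201 FPKM in any sample.

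**Figure D1:**
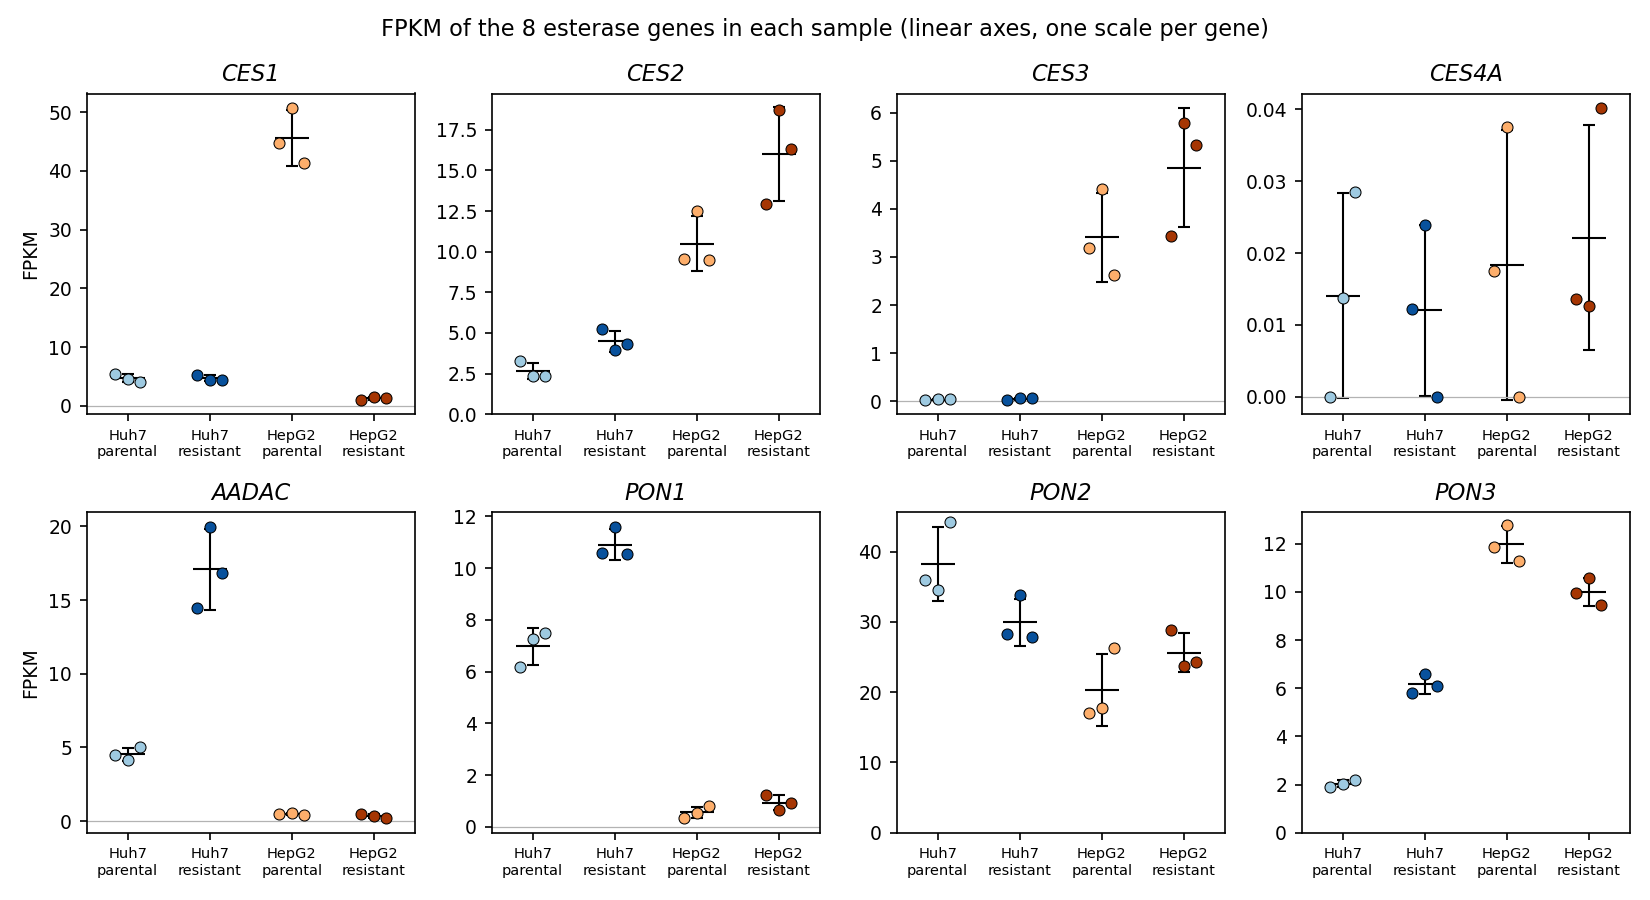
FPKM (linear vertical axes, one scale per gene) of the 8 genes in the 4 groups; each point is a sample, and the horizontal line and bar are the mean and SD of 3 samples. CES1 falls from 41.4 to 50.7 FPKM in parental HepG2 samples to at most 1.51 in resistant ones, AADAC and PON3 stand higher in resistant than in parental Huh7 samples, and CES4A stays at or under 0.0402 FPKM.

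Counted over the genes that passed the filter of 1 FPKM in at least 3 samples, resistant against parental Huh7 cells had 6 of the 8 genes tested. A gene was called where the adjusted p was under 0.05 and the log2 difference beyond 1. AADAC and PON3, 2 of these 6, were called and both were higher, where 22.6% of the 12554 genes tested were called in either direction and 8.59% were called higher. On the adjusted p alone, 5 of 6 passed, against 70.1% of all genes tested. PON2 was the nearest to the threshold: its adjusted p was 0.0808 without the filter, 0.0711 with median-ratio scaling, 0.0709 with the replicate block, 0.0947 with all 12 samples in one fit, and 0.0528 to 0.158 with any Huh7 sample left out except resistant replicate 2 (0.0276). In all but CES1 the groups did not overlap, which was so for 74.5% of all genes tested. The median difference over all genes tested was -0.04 on the log2 scale.

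In HepG2, 5 of the 8 genes were tested and CES1 was called, as lower. Of the 11762 genes tested, 6.27% were called and 2.98% were called lower. CES1 was also the 1 gene of the 5 that passed on the adjusted p alone, where 20.0% of all genes did. The groups did not overlap for CES1, CES2 and PON3, 3 of 5 genes, and for 40.4% of all genes tested. The median over all genes tested was 0.12.

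Change in Huh7 went with the base composition of the genes: over the 12554 genes tested, the log2 difference and gene GC content had a Spearman correlation of 0.62, given as a description since genes share libraries, against 0.04 in HepG2. Genes poor in GC thus tended to be lower in resistant Huh7 cells. AADAC, PON3 and PON1, which were higher there, have 38.5%, 41.8% and 43.1% GC, PON2 has 44.6%, and CES1, CES2, CES4A and CES3 have 53.4%, 56.5%, 54.6% and 59.3%. With the GC trend of each library removed, the Huh7 differences were 2.46 for AADAC, 1.71 for PON3 and 0.94 for PON1. The fall of CES1 in HepG2 was -4.42 in that fit.

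**Figure D2:**
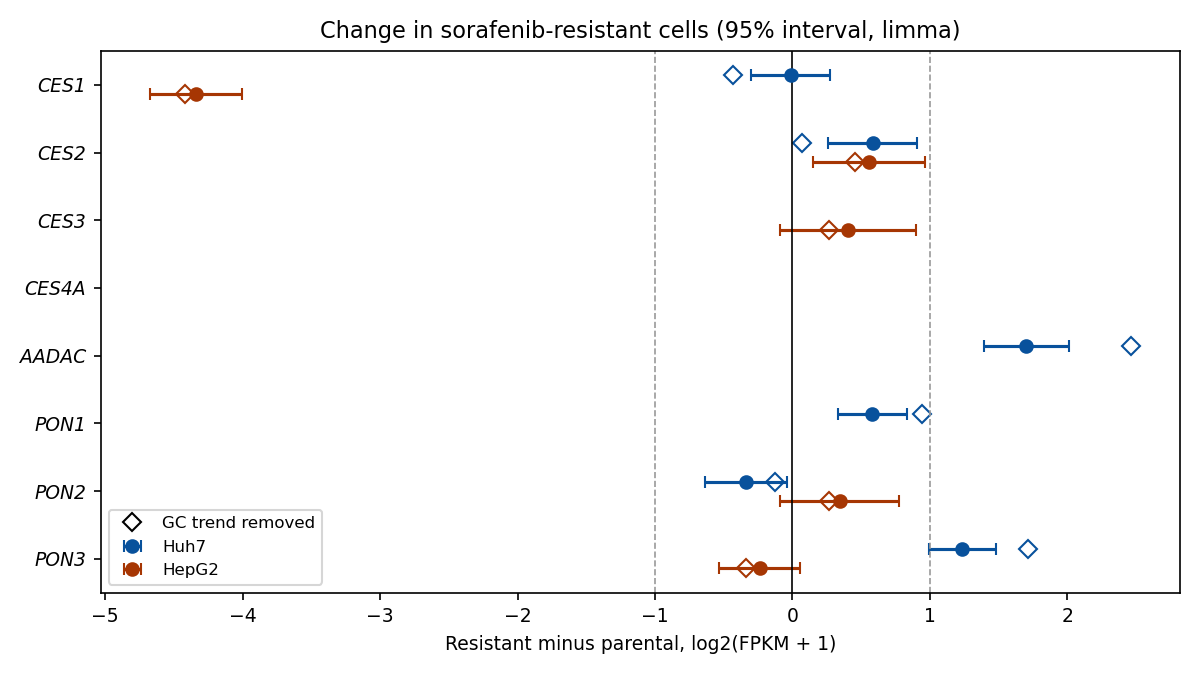
Difference between resistant and parental cells on the log2(FPKM + 1) scale (horizontal axis) for each gene (vertical axis); filled points and bars are limma's estimates with 95% intervals, open diamonds the estimates after removal of each library's GC trend, and dashed lines the limit of 1 in either direction. CES1 in HepG2 lies at -4.34, AADAC and PON3 in Huh7 at 1.70 and 1.24, and genes without a point did not pass the filter on low values.

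Parental cells of the lines differed, before any drug, in CES1, CES2 and PON3, and CES3, AADAC and PON1 were low in 1 line. This comparison and the next share samples with those within each line, so their values are not independent of them. In parental cells 7 of the 8 genes were tested and 6 were called, where 31.9% of 12796 genes were called. The groups did not overlap in any of the 7, as in 70.0% of all genes tested. CES3, AADAC and PON1 passed the filter only through the line in which they are high, so the count of 6 is no support for a difference between these genes and others. Mean CES1 was 9.58-fold higher in HepG2 (log2 difference of Huh7 minus HepG2 -3.02, SE 0.14), PON3 5.86-fold (-2.09, SE 0.13) and CES2 3.94-fold (-1.65, SE 0.16). PON1 was 12.7-fold higher in Huh7 (2.37, SE 0.15) and AADAC 9.03-fold (1.88, SE 0.12). Limma's adjusted p was 9.53e-07 for CES1, 3.19e-06 for PON3 and 5.20e-05 for CES2. For CES3, AADAC and PON1 it ran from 4.20e-06 to 1.03e-05. Nothing is read from those 3 values because of how the genes passed the filter. PON2 was 1.88-fold higher in Huh7 (0.90, SE 0.19, limma's adjusted p = 0.00339) and was not called, although without parental HepG2 replicate 3, its highest parental HepG2 value, the difference was 1.09 and passed both limits.

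In resistant cells 7 of the 8 genes were tested and 5 were called, where 28.8% of 12550 genes were called. Here too CES3, AADAC and PON1 passed the filter only through the line in which they are high, so nothing is read from the count of 5. Of the 7 genes, 6 did not overlap between the lines, as in 71.5% of all genes tested. The order of the lines turned for CES1, which was now 3.62-fold higher in Huh7 (1.31, SE 0.12, limma's adjusted p = 5.32e-05). AADAC was 49.7-fold higher in resistant Huh7 than in resistant HepG2 cells (3.74, SE 0.15) and PON1 11.7-fold (2.64, SE 0.13). CES2 was 3.57-fold higher in HepG2 (-1.62, SE 0.16), and CES3 reads were 92.0 times as frequent there (1263 against 15, 95% exact interval 55.6 to 165). For PON3 the gap had narrowed to 1.62-fold (-0.62, SE 0.10, limma's adjusted p = 0.00106), and PON2 overlapped between the lines (0.22, SE 0.12, limma's adjusted p = 0.148).

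Whether resistant cells of the 2 lines changed differently was tested with the interaction of line and resistance in all 12 samples. Of 7 genes tested, 3 were called, CES1, AADAC and PON3, where 28.8% of 13800 genes were called. AADAC and PON1 passed the filter through Huh7 alone and CES3 through HepG2 alone, so nothing is read from this count either. The change in Huh7 minus that in HepG2 was 4.33 for CES1 (SE 0.18, 95% interval 3.94 to 4.72, limma's adjusted p = 6.67e-08), 1.86 for AADAC (SE 0.18, limma's adjusted p = 1.77e-05) and 1.48 for PON3 (SE 0.13, limma's adjusted p = 8.76e-06). For PON2 it was -0.68 (SE 0.23, limma's adjusted p = 0.0278), under the fold limit. CES2 gave 0.02 with a 95% interval of -0.48 to 0.53 (limma's adjusted p = 0.940), and -0.34 with the GC trend removed (adjusted p = 0.0364). For CES3 it was -0.38 (limma's adjusted p = 0.194) and for PON1 0.27 (limma's adjusted p = 0.265), neither past the threshold. The median over all genes tested was 0.19 in the parental comparison and -0.15 in the interaction, and median-ratio scaling moved these to 0.05 and -0.03.

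With FPKM taken as levels per length of gene, the 8 genes can be ranked within each group. Parental HepG2 cells were led by CES1, with 49.1% of the summed level, ahead of PON2 (21.9%), PON3 (12.9%) and CES2 (11.3%), the last 2 of which overlap in their samples. In resistant HepG2 cells PON2 led with 43.4%, followed by CES2 (27.1%), PON3 (16.9%) and CES3 (8.22%), and CES1 held 2.20% and overlapped with PON1. Parental Huh7 cells were led by PON2 with 64.5%, followed by PON1 (11.8%), then CES1 (8.04%) and AADAC (7.66%), which overlap. In resistant Huh7 cells PON2 held 40.8%, AADAC had moved up to 23.3%, and PON1 (14.9%), PON3 (8.40%) and then CES1 (6.41%) and CES2 (6.11%), which overlap, came after it.

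The summed level of all 8 genes was 92.9 ± 6.00 FPKM (SD, n = 3) in parental and 59.1 ± 1.98 in resistant HepG2 cells, and 59.3 ± 5.50 in parental and 73.4 ± 6.09 in resistant Huh7 cells. The 4 carboxylesterases together stood at 59.6 ± 7.28 FPKM in parental and 22.2 ± 4.33 in resistant HepG2 cells, with no overlap between samples, and stood at 7.48 ± 1.15 in parental and 9.25 ± 1.12 in resistant Huh7 cells. The 3 paraoxonases summed to 32.8 ± 4.83 in parental and 36.5 ± 2.96 in resistant HepG2 cells, and to 47.2 ± 5.75 and 47.0 ± 4.30 in Huh7, within the spread of the samples in both lines.

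**Figure D3:**
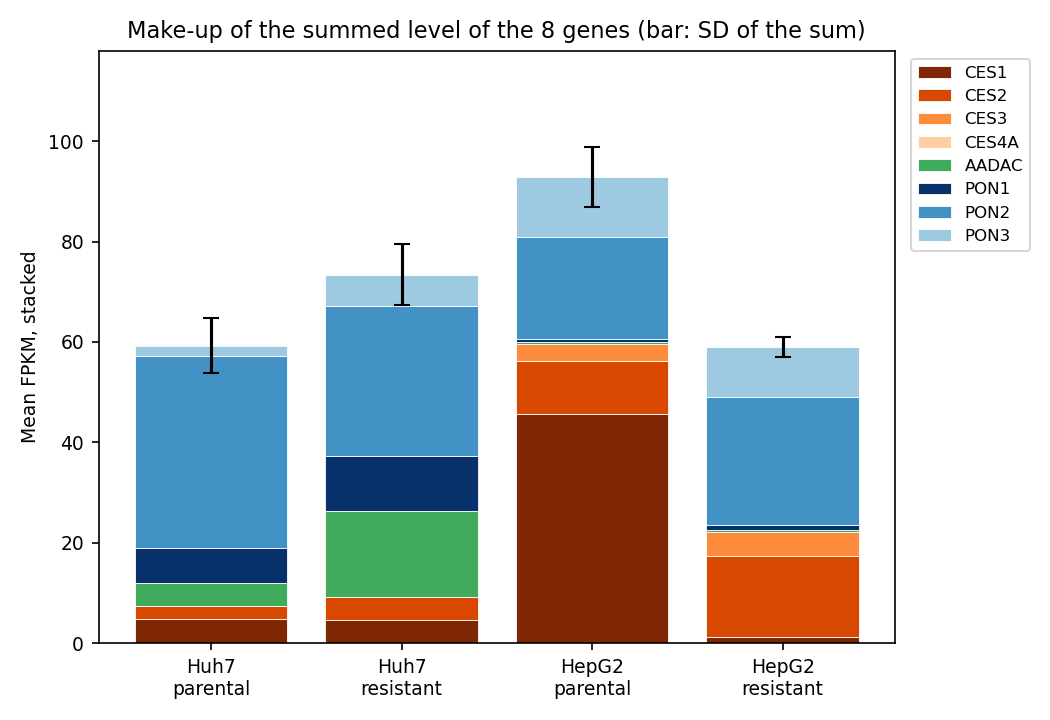
Mean FPKM of the 8 genes stacked by group (vertical axis, from 0; each colour is a gene, and the black bar is the SD of the sum over 3 samples). The CES1 part holds 49.1% of the parental HepG2 bar and 2.20% of the resistant one, and AADAC grows from 7.66% to 23.3% in Huh7.

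Lists of related genes were counted in the same fits. Of 17 other hydrolases of drugs and xenobiotics, 10 were tested in Huh7, where 2 were called higher and none lower (median -0.01), against 22.6% of all genes called and 8.59% called higher. They were APEH, an acylaminoacyl-peptide hydrolase, at 41.4 ± 6.54 against 18.9 ± 3.79 FPKM (log2 difference 1.10, limma's adjusted p = 0.000477), and CMBL, which activates the prodrug olmesartan medoxomil, at 3.62 ± 0.30 against 1.21 ± 0.18 FPKM (1.07, limma's adjusted p = 0.000105). In HepG2, none of 11 tested was called by limma (median 0.26), 3 had an unadjusted p under 0.05, as 36.6% of all genes tested did, and limma-voom called 0. With the GC trend removed, or without resistant Huh7 replicate 1, 1 rather than 2 was called in Huh7.

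Of 21 hydrolases of lipid esters, 18 were tested in Huh7, with 3 called higher and 1 lower (median 0.20) beside 22.6% of all genes called, and 15 in HepG2, where 6.27% of all genes were called, with none called by limma (median -0.05), 9 with an unadjusted p under 0.05 and 1 called by limma-voom. Without resistant HepG2 replicate 2, or with the GC trend removed, 1 was called there by limma. MGLL, the monoacylglycerol lipase, rose from 4.22 ± 0.42 to 29.9 ± 3.07 FPKM in resistant Huh7 cells (2.56, limma's adjusted p = 4.45e-06). PAFAH1B3, a catalytic subunit of a platelet-activating factor acetylhydrolase, rose from 14.4 ± 2.57 to 55.9 ± 8.05 FPKM (1.89, limma's adjusted p = 3.98e-05). PNPLA8, a calcium-independent phospholipase, fell from 10.2 ± 2.28 to 2.85 ± 0.26 FPKM (-1.52, limma's adjusted p = 8.86e-05). The fourth called gene, LYPLA2, an acyl-protein thioesterase, is named after its values were seen (1.20, limma's adjusted p = 0.000271).

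Since PON1 and PON3 travel on HDL, 14 genes of HDL proteins and receptors were counted beside them. In Huh7, 10 were tested, with 3 called higher and 1 lower (median 0.79), where 22.6% of all genes were called. The 4 not tested, in either line, were APOA4, APOE, CETP and ABCG1, which the counts and medians do not cover. PLTP, which transfers phospholipids between lipoproteins, rose from 7.75 ± 2.01 to 47.7 ± 6.83 FPKM (2.49, limma's adjusted p = 2.57e-05), LCAT, which esterifies cholesterol on HDL, from 3.40 ± 0.62 to 12.2 ± 1.97 FPKM (1.58, limma's adjusted p = 6.48e-05). APOA2, an HDL apolipoprotein, rose from 499.9 ± 22.4 to 1472 ± 168.8 FPKM in Huh7 (1.55, limma's adjusted p = 5.81e-05) and from 583.9 ± 53.8 to 1408 ± 218.6 FPKM in HepG2 (1.26, limma's adjusted p = 0.00235). It was the 1 gene called among 10 tested in HepG2 (median 0.13), where 6.27% of all genes were called, and without resistant HepG2 replicate 1 the count was 2. The lower gene in Huh7, named after its values were seen, was ABCA1, the exporter of cholesterol to HDL (-1.18, limma's adjusted p = 7.38e-05).

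Of 19 transcription factors known to act on liver genes of this kind, 18 were found (CEBPA was not analysed here) and 17 were tested in each line. In Huh7, 2 were called, both higher (median 0.31), against 22.6% of all genes called, namely FOXA3, a liver forkhead factor, at 62.4 ± 6.98 against 24.8 ± 5.69 FPKM (1.32, limma's adjusted p = 0.000225), and NR1I2, the pregnane X receptor, at 2.45 ± 0.24 against 0.696 ± 0.092 FPKM (1.02, limma's adjusted p = 0.000103). NR1I2 was under 1 FPKM in parental Huh7 cells and passed the filter only through the resistant ones, in which it is high. Nothing is therefore read from this count. With the GC trend removed, without resistant Huh7 replicate 2 or without parental Huh7 replicate 1, 1 was called. In HepG2, where CES1 fell, 1 of 17 was called beside 6.27% of all genes, and 2 without resistant replicate 1 or without parental replicate 3. It was CEBPB, called lower, at 18.7 ± 1.69 against 43.7 ± 7.50 FPKM (-1.17, limma's adjusted p = 0.00255), and the median was 0.01. HNF4A, a main regulator of hepatocyte genes, differed by 0.01 in HepG2 (SE 0.18, limma's adjusted p = 0.981).

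Sorafenib itself is oxidised by CYP3A enzymes and glucuronidated, and 12 genes of its metabolism and transport were counted. In each line 6 were tested, with 1 called in Huh7 and 2 in HepG2, where 22.6% and 6.27% of all genes were called. With the GC trend removed, 2 were called in Huh7. ABCG2, an efflux pump, was called higher in Huh7, at 10.7 ± 1.14 against 2.83 ± 0.15 FPKM (1.61, limma's adjusted p = 1.98e-05, list median 0.37). In HepG2, CYP3A5 was called higher, at 6.82 ± 1.26 against 1.08 ± 0.19 FPKM (1.90, limma's adjusted p = 0.000424), and ABCC3, an efflux pump of the basolateral membrane, lower, at a mean of 9.70 against 26.0 FPKM (-1.32, SE 0.17, limma's adjusted p = 0.00186). The median of the list there was -0.37.

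**Figure D4:**
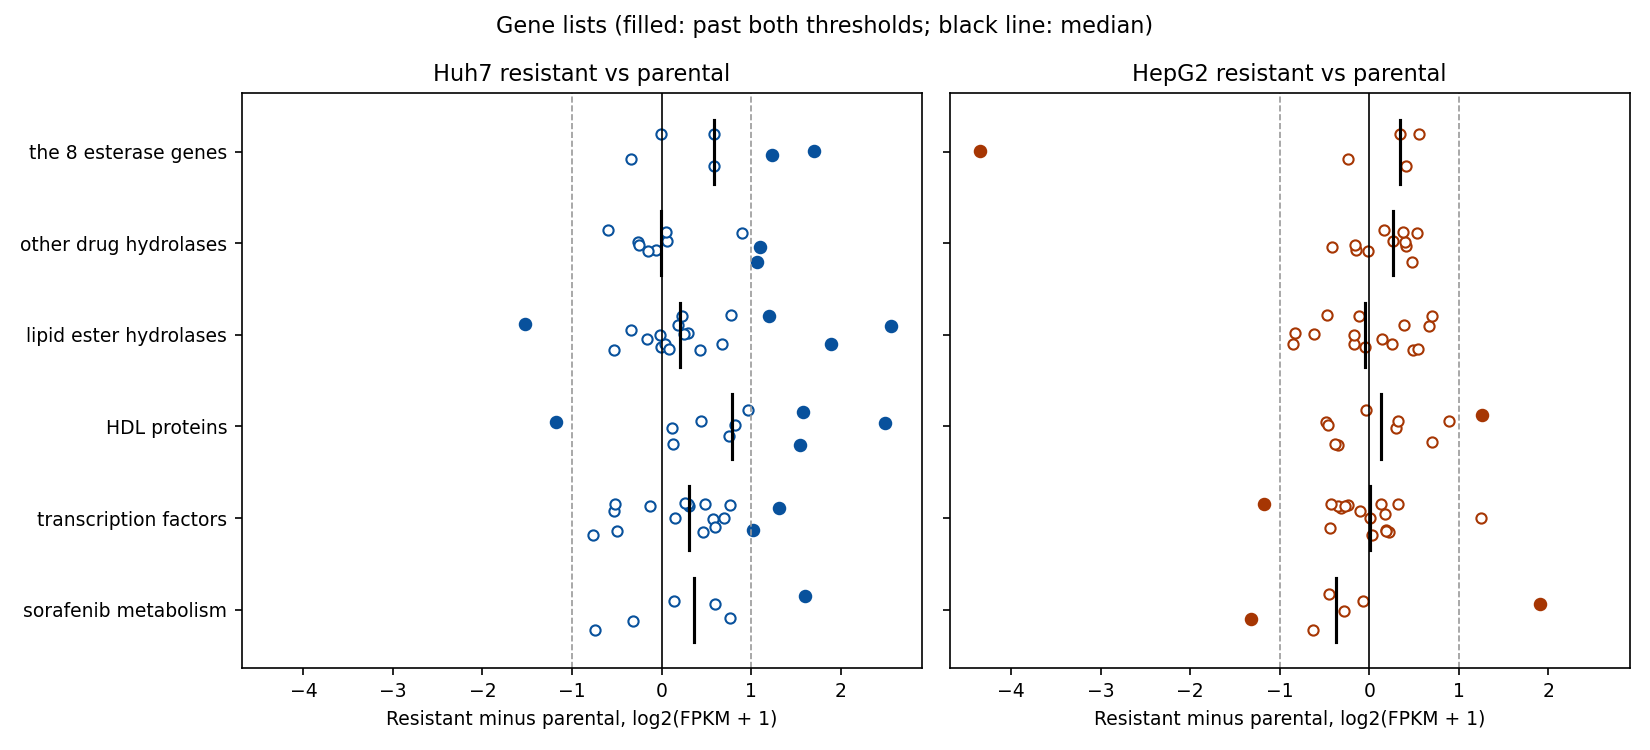
Difference between resistant and parental cells on the log2(FPKM + 1) scale (horizontal axis) for the tested genes of each list (rows), in Huh7 and in HepG2; filled points passed both limits, open points did not, and the black line is the median of the list. In HepG2 CES1 stands alone at -4.34, and in Huh7 the filled points of the lipid ester hydrolases lie on both sides of 0.

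The genes whose pattern over the 12 samples was closest to that of each esterase were found by the mean absolute difference of log2(FPKM + 1), centred over the samples, among 13800 genes. For CES1 these were C5AR1, a complement receptor, at a distance of 0.49, with 8.26 FPKM in parental and 0.0853 in resistant HepG2 cells, and LCN2, a siderophore-binding protein, at 0.60. Both averaged at most 0.124 FPKM in both Huh7 groups, where CES1 was at 4.70 and 4.76. The distances of the other genes were smaller. For AADAC the closest were SLFN13 (0.12) and CDH1, the epithelial cadherin (0.16), for PON1 COCH (0.15) and MAP10 (0.15), and for PON3 ABR (0.10) and DCAF4 (0.11). PLOD1, a collagen lysyl hydroxylase, and LRRC20 were closest to CES2 (both 0.10), and ARHGEF40 and FAM155B to CES3 (both 0.11). PON2 varied too little between the groups to be matched.

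Protein-coding neighbours within 250 kb of the esterase genes were looked at after the values had been seen. Near CES1 there are 4, of which LPCAT2, a lysophospholipid acyltransferase, was the one tested in HepG2. It measured 1.34 FPKM in resistant and 3.31 in parental cells on average (-0.88, SE 0.19, limma's adjusted p = 0.0159), under the fold limit. SLC6A2, the noradrenaline transporter, was too low to be tested, with means of 0.0897 and 0.969 FPKM. Around CES2, CES3 and CES4A there are 24 neighbours, with 1 of 12 tested called in Huh7 (TMEM208, higher) and 1 of 13 in HepG2 (CDH16, higher), where 22.6% and 6.27% of all genes were called. Mean CDH16 was 2.46 FPKM in resistant and 0.470 FPKM in parental HepG2 cells. The parental mean is under the filter of 1 FPKM, so nothing is read from this call. Near the paraoxonases there are 3, and the one tested, PPP1R9A, fell in resistant Huh7 cells (-1.53, SE 0.13, limma's adjusted p = 4.48e-05) beside PON1 and PON3, which rose. Neither of the 2 neighbours of AADAC was expressed enough to be tested.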

How the data were processed

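RNA-seq of the 12 samples was used, with groups and replicate numbers from the sample labels. The submitters' notes name GRCh38 and bcl2fastq. The labels give a Qiagen kit and the methods TRIzol for extraction. The aligner and the quantification tool are not given in the sources used here. The deposited values, whose unit is not stated, are FPKM or RPKM by their steps: with exon lengths of GENCODE 29, 96.3% to 96.5% of the values of up to 2000 reads in a sample, and 99.5% to 99.7% of those of single-exon genes, fall within 0.05 of a whole read. They were used as the authors deposited them, and depth was 12290128 to 19285970 reads per sample.

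Ensembl genes reaching 1 FPKM in 3 or more samples of a fit were tested with limma 3.58.1 in R 4.3.3 on log2(FPKM + 1), with a trend on mean expression, two-sided, and Benjamini-Hochberg adjustment over all genes tested. Genes with an adjusted p under 0.05 and a log2 difference beyond 1 were called. Intervals are at 95%, and 3 reads were taken as the floor. Tables were handled in Python 3.11.15 with pandas 2.3.3, numpy 2.4.6 and scipy 1.17.1. GC trends were removed per library by lowess (span 0.3). The fits were tested on simulated data. The members, lists and tests were chosen with earlier results of these data known. Named beside the 8 genes are up to 3 called genes with the largest change per list and line, and the 2 genes of closest pattern for each gene whose highest group mean was at least 1 FPKM and over 2 times its lowest. The promoter sequences are RefSeq's.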

Additional observations from a re-analysis of the deposited data

Results flagged for a closer look

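For 3 of the 8 genes, the change from parental to resistant cells differed between the lines by the interaction test in all 12 samples (limma, adjusted over all genes tested). The change in Huh7 minus the change in HepG2 was 4.33 on the log2 scale for CES1, which fell in HepG2 and did not pass the test in Huh7 (with the GC trend removed, -0.43 there). It was 1.86 for AADAC, whose HepG2 values rest on 6 to 14 reads per sample, and 1.48 for PON3, which rose in Huh7 and did not pass the test in HepG2. With the GC trend of each library removed, these were 4.03, 2.69 and 2.02. All 3 were also called under every alternative tried, with each sample left out in turn included. These alternatives reuse the same samples and are no independent support. AADAC passed the filter through Huh7 alone, so nothing is read from its repeated calls.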

How the results depend on the processing

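Alternatives were a pseudocount of 0.1, no filter or a filter on the mean, median-ratio and upper-quartile scaling, limma without the trend, limma-voom on the recovered reads, removal of the GC trend, the replicate number as a block, all 12 samples in one fit, no limit on the fold change and leaving out each sample. Addition of the CES1P1 values to CES1 was chosen after seeing the data and changed no call. The number of the 8 genes called changed by more than 1.5 times in 1 alternative: in Huh7 it was 5 in place of 2 without the limit on the fold change. Leaving out single samples gave 2 in Huh7, 1 in HepG2, 6 to 7 in parental cells, 5 in resistant cells and 3 in the interaction.

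The differences that reversed were those of CES1 in Huh7 and the interactions of PON1 and CES2, none past the threshold as reported. CES1 in Huh7 was 0.015 with median-ratio scaling and -0.089 to 0.077 with single samples left out. The interaction of PON1 was -0.038 with a pseudocount of 0.1 and -0.083 with limma-voom, and that of CES2 was -0.34 with the GC trend removed (adjusted p = 0.0364) and -0.11 to 0.14 with single samples left out. The cause was not tested. The fall of CES1 in HepG2 was -5.04 with a pseudocount of 0.1 and -5.13 with limma-voom. Same-numbered samples had deviations from their group means that correlated by 0.08, 0.06 and -0.23 in Huh7 and 0.25, 0.44 and -0.01 in HepG2. Not every pair was over 0.1 in either line, and the main fits took the samples to share only a number. With 3 samples per group, such correlations cannot exclude a pairing. Over all genes, the replicate block moved the calls from 2838 to 2841 in Huh7 and from 737 to 779 in HepG2. Of the 3 pairs in each line, not all correlated best with their own number, and the replicate block left the counts of the 8 genes called at 2, 1, 6, 5 and 3.

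Over all genes, 2838 were called in Huh7, against 1490 with the GC trend removed and 4295 with limma-voom, and 737 in HepG2, against 1157 with limma-voom. Without the fold limit the counts were 8797, 2357, 8338, 8421 and 7768. Higher against lower calls were 387 and 350 in HepG2, but 285 and 428 with median-ratio scaling and 279 and 444 with the GC trend removed. They were 2482 and 1599 between parental cells, against 1777 and 1831 with the GC trend removed, and 1459 and 2517 in the interaction, against 1861 and 2025 with median-ratio scaling and 1487 and 1398 with the GC trend removed. Depth limits CES4A in all groups, CES3 in Huh7, and AADAC and PON1 in HepG2, which were not tested within those lines.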
